A study of Mus musculus with 53 samples.

Results

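The sarcomeric myosin light chains are small subunits that bind the neck of the myosin heavy chain in striated muscle. The 6 genes described here are Myl1, Mylpf, Myl2, Myl3, Myl4 and Myl6b, chosen by symbol, and all 6 were found among 55573 genes in the P2 bulk tables and among 57010 genes in the P7 single-cell matrices. The tissue was mouse cerebellum, and the series title poses the question as one of muscle fate being held down while the cerebellum develops. Mutants carried Atoh1Cre, a recombinase driven in the granule cell lineage, with homozygous floxed Insm1 (Insm1 fl/fl), or with homozygous floxed Tead1 and Tead2 (Tead1 fl/fl; Tead2 fl/fl). Controls carried the floxed alleles of their own line without Cre, so that a control for Cre itself is not part of these comparisons. At postnatal day 2 (P2), bulk RNA-seq covered 4 controls and 4 mutants of the Insm1 line and 3 controls and 4 mutants of the Tead1/2 line, each from 1 pup. At postnatal day 7 (P7), split-pool single-cell RNA-seq covered 10 libraries from individual pups, 2 controls and 3 mutants for each allele, deposited as 1 sample of mixed genotype.

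Each myosin heavy chain carries 1 essential and 1 regulatory light chain. Myl1 (essential) and Mylpf (regulatory) are the light chains of fast skeletal fibres, and Myl4 is the essential chain of embryonic muscle and the atrium. Myl3 (essential) and Myl2 (regulatory) belong to slow skeletal fibres and the ventricle. Myl6b is an essential chain of slow muscle that is also made outside muscle. Skeletal muscle forms under the factors Myod1 and Myog, which bind E-boxes, and under MEF2, SRF (which binds CArG boxes) and TEAD proteins (which bind MCAT elements). Insm1 encodes a zinc-finger repressor of neuroendocrine and neuronal progenitors.

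The promoters of 4 members are shown because Myl1, Mylpf and Myl4 moved together at P2 and Myl6b did not. Each is the 250 bases before the transcription start given for the gene by RefSeq on GRCm38.p6, read 5′ to 3′ on the gene's strand, and all 6 members had an entry. Capitals mark a CAGCTG E-box, a CATTCC MCAT element, a CArG box or a MEF2 element, searched on both strands.
Myl1, chr1:66945057-66945306, minus strand: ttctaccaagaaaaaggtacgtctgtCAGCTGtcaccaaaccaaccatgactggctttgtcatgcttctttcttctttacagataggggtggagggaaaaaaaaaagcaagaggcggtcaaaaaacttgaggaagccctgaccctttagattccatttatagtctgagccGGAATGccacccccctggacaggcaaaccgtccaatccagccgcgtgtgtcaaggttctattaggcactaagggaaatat
Mylpf, chr7:127211358-127211607, plus strand: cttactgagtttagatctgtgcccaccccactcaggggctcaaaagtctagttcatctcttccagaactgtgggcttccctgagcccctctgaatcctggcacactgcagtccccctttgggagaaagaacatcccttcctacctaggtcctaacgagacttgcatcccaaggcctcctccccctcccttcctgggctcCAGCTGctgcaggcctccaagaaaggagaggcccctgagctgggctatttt
Myl4, chr11:104550413-104550662, plus strand: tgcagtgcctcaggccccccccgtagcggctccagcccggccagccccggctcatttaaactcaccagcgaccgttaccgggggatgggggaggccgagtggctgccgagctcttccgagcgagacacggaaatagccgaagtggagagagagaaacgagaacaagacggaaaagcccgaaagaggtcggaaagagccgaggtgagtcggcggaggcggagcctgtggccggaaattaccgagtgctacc
Myl6b, chr10:128498686-128498935, minus strand: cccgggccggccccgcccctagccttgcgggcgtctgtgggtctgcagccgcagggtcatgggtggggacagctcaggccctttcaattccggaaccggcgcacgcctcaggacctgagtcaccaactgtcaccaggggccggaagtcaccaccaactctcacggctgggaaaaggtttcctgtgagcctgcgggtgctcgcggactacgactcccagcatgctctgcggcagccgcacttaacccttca

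The Myl1 window held 1 E-box, which began 224 bases before the start, and 1 MCAT element on the opposite strand (printed as GGAATG), which began 80 bases before it. The Mylpf window held 1 E-box at 51 bases before the start. The Myl4 and Myl6b windows held none of the 4 motifs, which says only that these letters are not in these windows. E-boxes of another sequence than CAGCTG were not searched for in any window. Among the members not printed, the Myl3 window held 2 MCAT elements and a CArG box, and 1 of the 2 Myl2 windows held an E-box. Of 32851 promoter windows of this length, 13% held the E-box, 12.6% the MCAT element, 1.47% a CArG box and 0.508% a MEF2 element. The windows of Myl1, Mylpf and Myl4 lie inside the annotated gene spans (chr1:66924295-66947932, chr7:127208848-127214288 and chr11:104546017-104587215), so other starts of these genes were not read. GC content was 46.8% for Myl1, 56.4% for Mylpf, 63.6% for Myl4 and 66.0% for Myl6b.

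Bulk libraries held 2.81e+07 to 6.45e+07 expected counts, and the 10 single-cell libraries gave 79838 cells, with 4779 to 10710 in each library, median depths of 6866 to 10187 UMIs and 0 cell barcodes shared between libraries. Per the labels, the Insm1 and Tead1/2 bulk libraries are different batches, so at P2 allele and batch cannot be told apart. Insm1 was lower in the Insm1 mutants at both stages (log2 change -1.91 at P2 and -2.63 at P7; edgeR FDR 0.0194 and 0.000310). At the level of the whole gene, Tead1 was not called lower in Tead1/2 mutants (-0.09, edgeR FDR 0.746 at P2, and -0.10, FDR 0.751 without the library labelled mutant 4), where Tead1 was higher at P7 (0.93, edgeR FDR 2.30e-06). Tead2 was lower at P7 (-1.95, edgeR FDR 7.38e-08) and at P2 was called only without 1 library, that labelled mutant 4 (-0.35, FDR 0.0417, against -0.22, FDR 0.314). In Insm1 mutants at P7, Tead2 was also called lower (-0.41, edgeR FDR 0.00410) and Tead1 higher (0.32, edgeR FDR 0.00449). Tead1/2 controls held less Tead2 than Insm1 controls, with means of 30.9 and 64.3 CPM at P7 and 23.6 and 86.6 CPM at P2. Tead2 stood at 23.6, 25.7 and 21.5 CPM in Tead1/2 controls 1 to 3 and at 19.2, 20.1 and 17.6 CPM in mutants 1 to 3, but at 26.2 CPM, above all 3 controls, in the library labelled mutant 4. Tead2 in that library was therefore not below the controls, unlike in mutants 1 to 3, and lay close to the highest of them. Whether that library is rightly labelled was not tested. Its Tead1 level (43.5 CPM) lay within the control range (33.4 to 54.2 CPM). Its Insm1 level (70.8 CPM) lay above all 3 controls (58.3 to 62.8 CPM), as in mutants 1 to 3. The Tead1/2 calls for the members at P2 are given with and without that library. It was set apart after its levels were seen, so the calls without it are a description. Xist was expressed in all 4 Insm1 controls but in only 2 of 4 Insm1 mutants (1 and 2), and in the Tead1/2 line it was expressed in control 2 and in the library labelled mutant 4.

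At P2 the fast skeletal pair Myl1 and Mylpf and the embryonic chain Myl4 were higher in every Insm1 mutant than in every Insm1 control. Levels are given as CPM, the usual depth-scaled count (here with TMM scaling of the library), and are compared between libraries for 1 gene and not between genes. Mylpf (ENSMUSG00000030672.12) stood at 0.265, 0.564, 0.243 and 0.0894 CPM in Insm1 controls 1 to 4 and at 8.68, 5.92, 2.50 and 6.37 CPM in Insm1 mutants 1 to 4. The lowest mutant was mutant 3, and it was still above the highest control. The ratio of the means was 20.2, and the fitted log2 change was 4.32 (SE 0.47, edgeR quasi-likelihood FDR 0.00289).

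Myl1 (ENSMUSG00000061816.15) stood at 0.145, 0.591, 0.0303 and 0.0596 CPM in Insm1 control libraries, from 1 to 22 counts, and at 3.71, 3.25, 2.07 and 3.34 CPM in the mutants. Control 2 held the most of both fast chains among the controls, and the groups did not overlap. Its log2 change was 3.86 (SE 0.53, edgeR FDR 0.00838), and 5.18 (FDR 0.00101) without control 2. Myl4 (ENSMUSG00000061086.12) stood at 0.747, 1.05, 0.879 and 0.775 CPM in the controls and at 5.31, 3.80, 1.87 and 3.97 CPM in the mutants. Its controls were closer together than those of the fast chains, its mutants were ordered as for Mylpf, with mutant 3 lowest and mutant 1 highest, and its change was 2.13 (SE 0.30, edgeR FDR 0.00878).

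The other members did not move in this way. Myl6b (ENSMUSG00000039824.4) lay between 2.97 and 3.86 CPM in the Insm1 controls and between 2.86 and 3.63 CPM in the mutants, with a log2 change of -0.04 (SE 0.14, edgeR FDR 0.946). Its neighbour on chromosome 10 is Myl6, a related light chain, and how the counting divided reads between them is not given in the sources used here. Myl2 had 3 to 9 counts and Myl3 had 1 to 4 counts in these 8 libraries, under edgeR's filter on low counts, so edgeR tested neither. DESeq2 tested both and called neither, with a log2 change of 0.59 for Myl2 (SE 0.63, FDR 0.908) and 0.33 for Myl3 (SE 0.80, FDR 0.974).

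In all, 3 of the 4 members tested were called higher and 0 lower, beside 0.480% of 19582 genes called higher (0.689% in either direction). The Myl1 and Myl4 calls were lost without Insm1 control 1 (edgeR FDR 0.0504 and 0.0505), where the fitted changes were 3.70 and 2.07 and the count of members fell from 3 to 1. In bulk tissue a larger share of cells with a transcript and more transcript per cell cannot be told apart.

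The partners of the light chains were described by lists chosen by role. Of 10 sarcomeric myosin heavy chains 5 were tested and 1 was called in Insm1 mutants at P2, Myh3, the embryonic heavy chain, with a log2 change of 4.22 (edgeR FDR 0.000669); the median of the list was 0.23 beside 0.01 over all genes. Of 10 genes for myosin folding and thick filament partners 9 were tested and 6 were called, all higher, with a median of 0.99. They included Mybph (3.51), a myosin-binding protein, Myom2 (3.27), an M-band protein, Unc45b (2.02), a myosin chaperone, and Smyd1 (1.93), a methyltransferase of myosin assembly. Of 12 myogenic transcription factors 8 were tested and 2 were called higher, Myog at 4.52 and Mef2c at 0.37. Of 15 skeletal muscle markers 14 were called higher, with a median of 3.01.

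Light chains outside the sarcomere were read beside these. None of the 4 non-muscle and smooth muscle light chains (Myl6, Myl9, Myl12a and Myl12b) was called in Insm1 mutants at P2, with a median log2 change of 0.07. Only 0.689% of all genes were called in either direction there, so a count of 0 is near that share. Their difference from the members was not tested. None of the 7 tested kinases and phosphatase subunits that act on light chains was called either (median -0.02), nor any of 4 non-muscle and smooth muscle heavy chains (median -0.23). Among 4 tested smooth muscle and pericyte markers, 1 was called, Acta2 (1.99), an actin of smooth muscle that developing skeletal muscle also makes. The summed level of that list was 107 to 116 CPM in Insm1 controls and 91.9 to 122 CPM in mutants. The 6 cardiac markers summed to 83.0 to 99.2 CPM in controls and 69.2 to 91.8 CPM in mutants, and the atrial light chain Myl7 had at most 1 count in any of the 8 libraries. Granule progenitor markers summed to 1686 to 1851 CPM in controls and 1385 to 1500 CPM in mutants, with 0 of 8 called by edgeR and 3 called lower by DESeq2. Granule neuron markers summed to 1180 to 1367 and 905 to 1162 CPM, endothelial markers to 169 to 187 and 121 to 163 CPM, and oligodendrocyte lineage markers to 291 to 319 and 243 to 286 CPM, with 0 called by edgeR in each list. Unipolar brush cell markers summed to 58.7 to 61.2 and 63.9 to 75.7 CPM, with 1 of 3 called higher. The part of these shifts in the light chain changes at P2 was not tested.

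**Figure D1:**
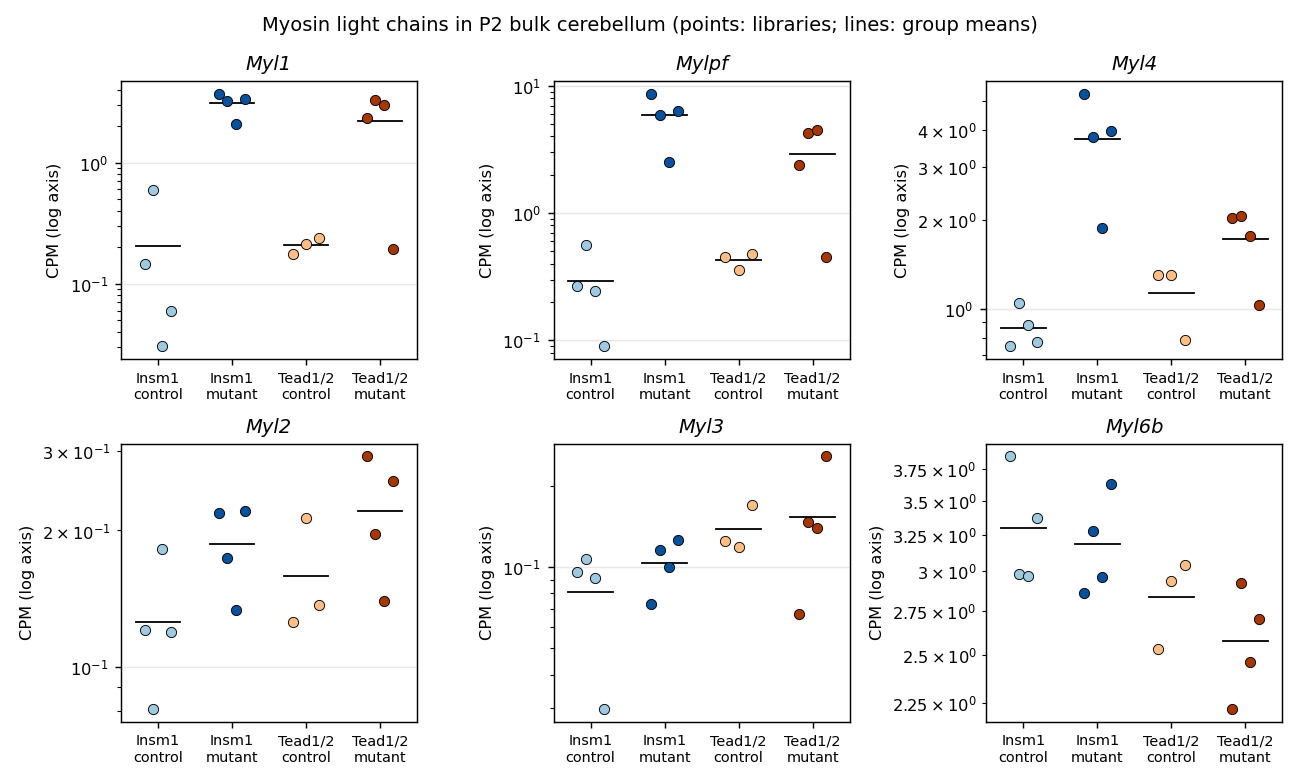
CPM of each light chain (vertical log axes) in the 15 P2 bulk libraries, by group on the horizontal axis; points are libraries and lines are group means. Myl1, Mylpf and Myl4 are separated between Insm1 controls and mutants, whereas 1 Tead1/2 mutant, the library labelled mutant 4, lies at 0.193 CPM for Myl1, within the range of its controls.

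In Tead1/2 mutants at P2 the same 3 chains were high in 3 libraries and at the control level in the fourth. Myl1 stood at 0.175, 0.213 and 0.239 CPM in Tead1/2 controls 1 to 3, at 2.33, 3.28 and 2.97 CPM in mutants 1 to 3, and at 0.193 CPM in the library labelled Tead1/2 mutant 4. Mylpf stood at 0.451, 0.356 and 0.478 CPM in the controls at 2.38, 4.28 and 4.50 CPM in mutants 1 to 3, and at 0.451 CPM in the library labelled mutant 4. For both genes mutants 1 to 3 lay above all controls. The library labelled mutant 4, whose Tead2 level was not below the controls and whose Insm1 level was above them, lay within the control range.

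Myl4 stood at 1.30, 1.30 and 0.786 CPM in the Tead1/2 controls at 2.02, 2.06 and 1.76 CPM in mutants 1 to 3, and at 1.03 CPM in the library labelled mutant 4, a smaller separation than for the fast pair. Myl6b lay between 2.53 and 3.04 CPM in the controls and between 2.22 and 2.92 CPM in the mutants. Myl2 and Myl3 had 4 to 13 and 3 to 9 counts and were not tested by edgeR, and DESeq2 gave them no adjusted p.

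With all 7 libraries edgeR called no member and no other gene: 0 of 20247, or 0% (4052 genes had an unadjusted edgeR p under 0.05, and DESeq2 called 1005 genes, 5.87% of 17124). The fitted log2 changes were 3.39 for Myl1 (SE 0.75, edgeR FDR 0.0932), 2.76 for Mylpf (SE 0.64, FDR 0.0952), 0.58 for Myl4 (SE 0.26, FDR 0.252) and -0.17 for Myl6b (SE 0.14, FDR 0.540). Without the library labelled Tead1/2 mutant 4, 2 of the 4 members tested were called higher, beside 1.98% of 20234 genes called higher (3.19% in either direction). The changes were then 3.74 for Myl1 (edgeR FDR 4.66e-05) and 3.09 for Mylpf (edgeR FDR 0.000538), with Myl4 at 0.74 (edgeR FDR 0.0875) and Myl6b at -0.19 (FDR 0.540). DESeq2 on all 7 libraries called Myl1 and Mylpf higher, beside 4.09% of genes, with Myl1 at 3.37 (FDR 0.00856) and Mylpf at 2.73 (FDR 0.0141).

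The edgeR calls in the partner lists at P2 depended on the same library. With all 7 libraries edgeR called none of their genes, and the median log2 change was 2.96 for the 15 skeletal muscle markers and 0.50 for the 9 tested folding and thick filament partners. DESeq2 on the same 7 libraries called 7 of 15 skeletal muscle markers higher, 3 of 10 folding and thick filament partners, 2 of 12 myogenic transcription factors and 1 of 10 sarcomeric heavy chains. Without the library labelled mutant 4, 14 of 15 skeletal muscle markers were called higher, with Myog at 7.08 and Myod1 at 5.85. So were 3 of 9 tested myogenic transcription factors, 4 of 9 folding and thick filament partners, led by Unc45b at 2.71 and Smyd1 at 2.08, and 1 of 8 tested sarcomeric heavy chains, Myh3 at 3.33. The 15 skeletal muscle markers summed to 25.4 to 28.2 CPM in the Tead1/2 controls and to 22.5 to 236 CPM in the mutants. Choroid plexus markers summed to 2.41 to 5.88 CPM in the controls and to 2.57 to 60.5 CPM in the mutants. The non-muscle and smooth muscle light chains summed to 373 to 395 CPM in the controls and 406 to 449 CPM in the mutants. Purkinje cell markers summed to 1374 to 1490 and 1502 to 1708 CPM, and cardiac markers to 79.0 to 90.1 and 59.3 to 76.2 CPM. The part of these shifts in the results was not tested.

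No difference between the deletions was called for any member at P2, nor for any of 20837 genes (0% by edgeR, 1435 at an unadjusted p under 0.05; DESeq2 called 0.0484%). As the Tead1/2 effect minus the Insm1 effect, the log2 difference was -0.48 for Myl1 (SE 1.11), -1.56 for Mylpf (SE 0.93), -1.55 for Myl4 (SE 0.42, edgeR FDR 0.534) and -0.12 for Myl6b (SE 0.19). Without the library labelled Tead1/2 mutant 4 no member was called either, with differences of -0.12 for Myl1, -1.23 for Mylpf, -1.39 for Myl4 and -0.14 for Myl6b. Without Insm1 control 2 the difference for Myl1 was -1.80 (edgeR FDR 0.910), and over all libraries left out in turn it ranged from -1.80 to -0.12.

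Across the 15 P2 libraries the log2 levels of Myl1 and Mylpf had a Pearson r of 0.97, those of Mylpf and Myl4 0.92, and those of Myl1 and Myl4 0.86. Myl6b gave values between -0.32 and -0.07 with the other 5. These are descriptions over libraries that share 2 batches and the genotype groups and include the library labelled Tead1/2 mutant 4, and the low counts of Myl2 and Myl3 limit their values. Of 19384 genes compared, the 5 most like Mylpf were Myh3 (r 0.98), Tnni1, Acta1, Smyd1 and Tnnc2 (r 0.97 each). The 5 most like Myl1 were Tnni1 and Myog (r 0.99 each), the unnamed locus Gm28653, Tnnc2 and Actc1 (r 0.98 each). The 5 most like Myl4 were Acta1 (r 0.95), Tceal7 (0.94), Myh3, Tnnc1 (0.92 each) and Tnnt3 (0.91). Tnni1, Tnnc1, Tnnc2 and Tnnt3 are troponin subunits, and Acta1 and Actc1 are sarcomeric actins.

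At P7 all 6 light chains were higher in the mutants of both alleles, by the most for the fast pair. Levels here are UMIs summed over the cells of a library and given as CPM after TMM scaling. Myl1 stood at 1.60 and 2.07 CPM in the control libraries of the Insm1 line, and Insm1 mutants 1 to 3 reached 103, 109 and 102 CPM. In the Tead1/2 line it stood at 1.47 and 1.85 CPM in the controls and at 258, 295 and 218 CPM in the mutants. The 4 control libraries lay close together, and every Tead1/2 mutant lay above every Insm1 mutant. The fitted log2 change was 5.85 (SE 0.18, edgeR FDR 1.92e-08) for the Insm1 deletion and 7.28 (SE 0.19, FDR 5.48e-09) for the Tead1/2 deletion.

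Mylpf, its regulatory partner, stood at 1.24 and 1.38 CPM in Insm1 controls and at 52.6, 70.4 and 59.3 CPM in Insm1 mutants. It stood at 0.930 and 0.947 CPM in Tead1/2 controls and at 153, 152 and 114 CPM in Tead1/2 mutants. The groups were again separated, with log2 changes of 5.55 (SE 0.19, edgeR FDR 2.98e-08) and 7.21 (SE 0.21, FDR 7.03e-09). Myl4 stood at 109, 98.1 and 82.2 CPM in Tead1/2 mutants and at 37.1, 45.6 and 40.3 CPM in Insm1 mutants. Its controls lay between 2.50 and 2.88 CPM over both lines, and its changes were 4.01 (SE 0.15) and 5.15 (SE 0.16), with edgeR FDR of 4.35e-08 and 7.92e-09.

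The slow and ventricular chains were rare, and their changes rest on few UMIs. Myl2 stood at 0.0887 and 0.0786 CPM in Insm1 controls and at 0.397, 0.590 and 0.499 CPM in Insm1 mutants. It stood at 0.0581 and 0.103 CPM in Tead1/2 controls and at 2.30, 1.79 and 1.53 CPM in Tead1/2 mutants. Its log2 changes were 2.57 (SE 0.31) and 4.56 (SE 0.32), with edgeR FDR of 0.000130 and 1.90e-06.

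Myl3, the essential partner of Myl2, stood at 0.332 and 0.415 CPM in Insm1 controls and at 1.04, 1.51 and 0.846 CPM in Insm1 mutants. It stood at 0.312 and 0.515 CPM in Tead1/2 controls and at 1.88, 2.25 and 1.63 CPM in Tead1/2 mutants. No mutant fell within the range of its controls, and the changes were 1.61 (SE 0.29, edgeR FDR 0.00187) and 2.24 (SE 0.30, FDR 0.000161). Myl6b stood at 1.11 and 1.09 CPM in Insm1 controls, and the mutants of that line held 1.95, 2.10 and 2.16 CPM. In the Tead1/2 line its controls held 0.683 and 0.792 CPM, and its mutants 3.58, 2.53 and 2.84 CPM. Its changes were the smallest of the 6 in both lines, at 0.92 (SE 0.16, edgeR FDR 0.00155) and 2.01 (SE 0.17, FDR 7.50e-06).

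All 6 of 6 members were called higher in each line, beside 18.6% of 24602 genes called higher for the Insm1 deletion (33.9% in either direction) and 25.9% for the Tead1/2 deletion (48.6%). Among all genes the median log2 change was 0.04 and 0.06. The members' medians were 3.29 and 4.86. Without the barcodes that Scrublet marked as doublets, the Insm1 changes were 4.61 for Myl1, 4.01 for Mylpf and 2.97 for Myl4. That of Myl6b was then no longer called (0.36, edgeR FDR 0.207). Scrublet marked 0 cells in Insm1 mutant 1 but 45.6% to 55.3% in the other libraries of that line. With all deposited barcodes, Myl1 and Mylpf changed by 5.04 and 4.90 in Insm1 mutants and by 5.72 each in Tead1/2 mutants.

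**Figure D2:**
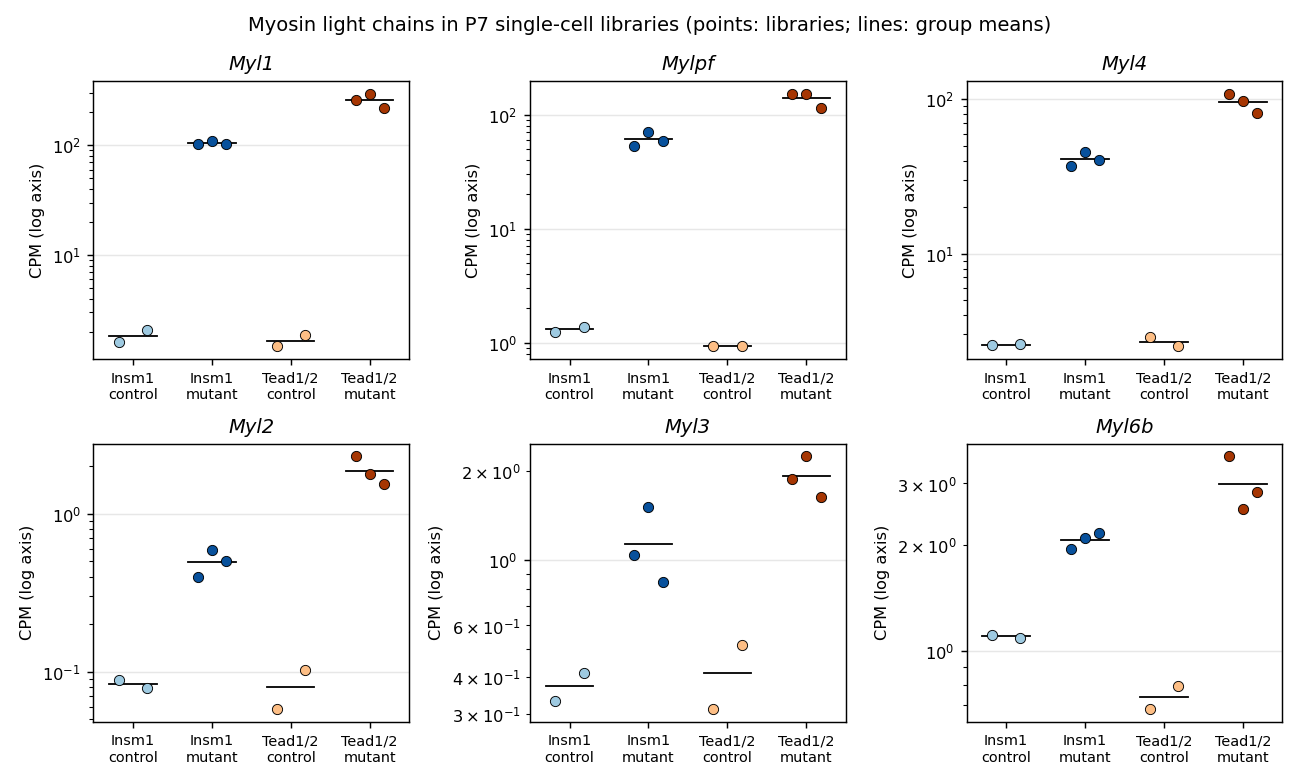
CPM of each light chain (vertical log axes) in the 10 P7 libraries, from UMIs summed over cells, by group on the horizontal axis; points are libraries and lines are group means. In all 6 panels the 3 mutants of a line lie above its 2 controls, and for Myl1 the Tead1/2 mutants (218 to 295 CPM) lie above the Insm1 mutants (102 to 109 CPM).

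The changes of 4 members were larger after the Tead1/2 deletion than after the Insm1 deletion at P7, by a direct test of the difference, beside 2.17% of 24602 genes called in that direction (3.68% in either). The log2 difference was 1.66 for Mylpf (SE 0.24, edgeR FDR 0.00807), 1.43 for Myl1 (SE 0.21, FDR 0.00823), 1.15 for Myl4 (SE 0.18, FDR 0.0117) and 1.08 for Myl6b (SE 0.23, FDR 0.0353). Myl2 had a difference of 1.99 (SE 0.48), the largest of the 6, with an edgeR FDR of 0.0504, and Myl3 differed by 0.63 (SE 0.41, FDR 0.438). Without Tead1/2 control 2, only Myl1 and Mylpf were called, with Myl4 at 1.06 (edgeR FDR 0.0603) and Myl6b at 1.20 (FDR 0.0914). With all deposited barcodes in place of cells, the differences for Myl1 and Mylpf were 0.69 and 0.82 (edgeR FDR 0.0759 and 0.0804). Without the barcodes that Scrublet marked they were 2.65 and 3.14 (edgeR FDR 0.0271 and 0.0419). That marking was uneven, with 0 cells in Insm1 mutant 1 and Tead1/2 control 2 and 1 cell in Tead1/2 mutant 1. It took 45.6% and 55.3% of cells in Insm1 mutants 2 and 3 and 41.3% and 36.4% in Tead1/2 mutants 2 and 3.

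**Figure D3:**
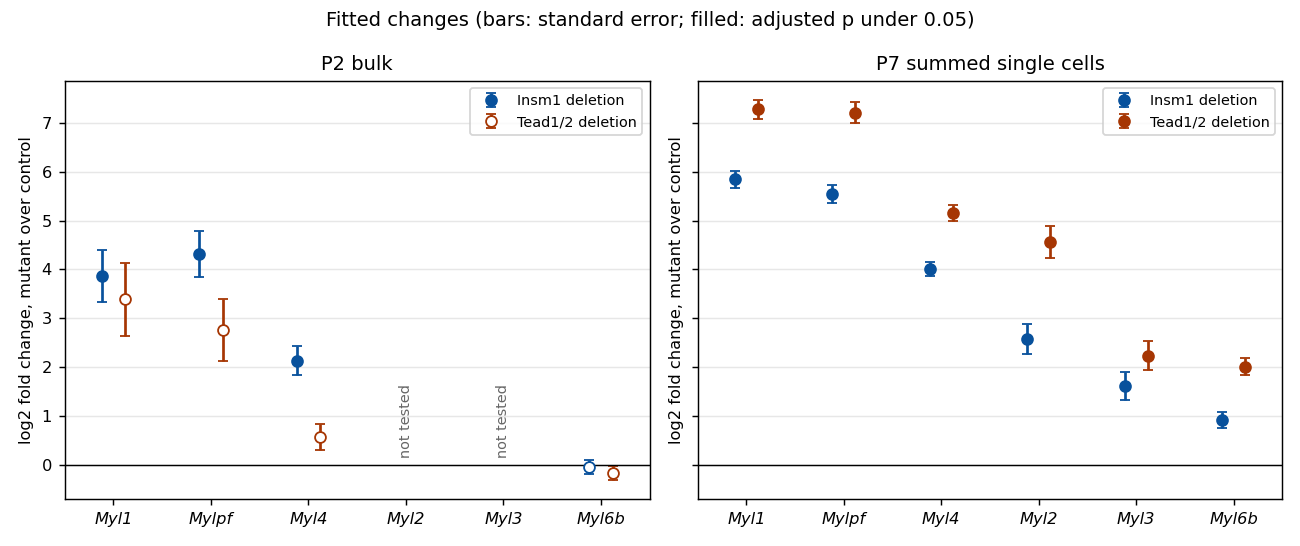
Fitted log2 fold changes of mutants over controls for each light chain (horizontal axis) at P2 and P7; bars are standard errors and filled points have an adjusted p under 0.05. Myl1 and Mylpf carry the largest changes in each panel, Myl2 and Myl3 were not tested by edgeR at P2, and Myl6b is near 0 at P2 and at 0.92 and 2.01 at P7.

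The partners of the light chains moved in both lines at P7. Of 10 sarcomeric heavy chains 8 were called higher in Insm1 mutants and 10 in Tead1/2 mutants, beside 18.6% and 25.9% of all genes. Myh3, the embryonic heavy chain, changed by 6.53 and 8.10, Myh8, the perinatal one, by 6.07 and 8.14, and Myh7, the slow one, by 6.36 and 8.47. Myh2, a fast adult heavy chain, had 1 and 2 UMIs in the Insm1 controls and 16, 14 and 12 in their mutants, and 0 UMIs in both Tead1/2 controls and 36, 120 and 66 in theirs, so no fold is given. Of the 10 folding and thick filament partners 9 were called higher in each line, among them Mybph (5.74 and 7.40) and Myom2 (6.58 and 8.53).

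The list of kinases and phosphatase subunits held changes in both directions. Mylk4 changed by 6.61 in Insm1 mutants and 7.93 in Tead1/2 mutants, and Mylk3, the cardiac kinase, by 4.65 and 6.24. Mylk2, the skeletal muscle kinase, was 0.37 (edgeR FDR 0.166) in Insm1 mutants and rose by 1.35 in Tead1/2 mutants. Ppp1cb, the catalytic subunit of myosin phosphatase, fell by 0.17 and by 0.25. Among the 8 genes of that list 2 were called higher and 1 lower in Insm1 mutants, and 4 higher and 1 lower in Tead1/2 mutants, beside 33.9% and 48.6% of all genes called in either direction.

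Of the 4 light chains outside the sarcomere, Myl12a changed the most, by 0.86 in Insm1 mutants (edgeR FDR 5.39e-05) and 1.09 in Tead1/2 mutants (FDR 5.63e-06). In Insm1 mutants Myl6 was also called (0.33), and in Tead1/2 mutants Myl9 (0.63) and Myl12b (0.30). Among all genes 33.9% and 48.6% were called in either direction. The median of this list was 0.46 in both lines, beside 3.29 and 4.86 for the 6 members. Of 12 myogenic transcription factors 10 were called higher in each line, beside 18.6% and 25.9% of all genes. Myog changed by 6.83 and 7.37 and Myod1 by 3.03 and 5.41. Pax3 and Pax7, factors of muscle precursors, were not called in either (Pax7 at -0.29 and 0.45, edgeR FDR 0.596 and 0.365).

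Markers of other tissues were measured beside these. Smooth muscle and pericyte markers were called in 2 of 6 cases for the Insm1 deletion and 3 of 6 for the Tead1/2 deletion. Among all genes 33.9% and 48.6% were called in either direction, so these counts are near those shares. Acta2 changed by 6.53 and 6.20 and the pericyte gene Rgs5 by 0.07 and 0.22 (edgeR FDR 0.925 and 0.703 for Rgs5). Of 6 cardiac markers 2 were tested and 0 called by edgeR in either line, and Myl7 and Myl10 did not pass the filter. Meningeal fibroblast markers summed to 81.4 to 86.0 CPM in the Insm1 line's controls and 93.5 to 123 CPM in its mutants. In the Tead1/2 line the sums were 85.1 to 86.7 CPM for controls and 144 to 267 CPM for mutants. Choroid plexus markers summed to 3.65 to 5.05 CPM in the Insm1 line's controls and 4.84 to 5.44 in its mutants, and to 31.6 to 66.5 CPM in the Tead1/2 line's controls and 9.24 to 9.56 in its mutants. Microglia markers summed to 30.1 to 34.8 CPM in Insm1 controls and 49.1 to 58.8 in Insm1 mutants, and to 68.1 to 70.8 CPM in Tead1/2 controls and 74.6 to 129 in Tead1/2 mutants. Astroglia markers summed to 765 to 889 CPM in Insm1 controls and 999 to 1140 in Insm1 mutants, and to 560 to 643 and 711 to 879 CPM in the Tead1/2 line. Mural cell markers, a list with Acta2 in it, summed to 28.1 to 53.2 CPM for controls of the Insm1 line and 72.4 to 91.3 for its mutants. For the Tead1/2 line these sums were 26.7 to 50.1 and 116 to 154 CPM. Cells named mural showed no such rise. Their share of a library was 0.112% and 0.349% (Insm1 line, controls) against 0.291%, 0.184% and 0.146% (mutants). For the other line it was 0.620% and 0.234% against 0.213%, 0.422% and 0.381%. How much of the mural sums came from Acta2 was not tested. GABAergic interneuron markers summed to 467 to 489 CPM in Tead1/2 controls and 297 to 381 in Tead1/2 mutants, and Purkinje cell markers to 2984 to 3080 and 2309 to 2746 CPM. Lower in the mutants of both lines were the sums of unipolar brush cell markers (9.51 to 12.5 against 4.71 to 8.27 CPM in the Insm1 line, 10.2 to 11.3 against 5.31 to 7.21 in the Tead1/2 line) and of red blood cell markers (18.7 to 42.2 against 9.26 to 15.5, and 11.0 to 17.5 against 4.90 to 9.32). The 7 markers of cerebellum and the granule lineage all fell in both lines (medians -0.71 and -1.26). The part of these shifts in the light chain changes was not tested.

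Most light chain UMIs of the mutants lay in 4 of 35 clusters made without the 6 members. Clusters 1, 17 and 31 were named skeletal muscle-like from a list of 15 markers, of which clusters 1 and 31 held 15 and cluster 17 only 8. Cluster 33 held all 15 skeletal muscle markers but stayed unnamed, because Acta2, a marker of another class, was among its leading genes. Together they held 14.5% to 15.5% of the cells of Insm1 mutants and 21.9% to 29.9% of those of Tead1/2 mutants. Controls had 5 and 2 such cells in the Insm1 line and 0 and 0 in the Tead1/2 line. The other muscle genes of these cells were used to form the clusters, so that a light chain being high there is a description and not a test.

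In Insm1 mutants these clusters held 63.1% to 74.8% of the UMIs of Myl1, 64.6% to 78.3% of those of Mylpf and 65.8% to 74.9% of those of Myl4. In Tead1/2 mutants the shares were 74.8% to 88.0%, 76.3% to 89.6% and 74.3% to 88.4%. For Myl6b they were 42.6% to 48.0% in Insm1 mutants and 64.9% to 73.6% in Tead1/2 mutants, for Myl2 42.4% to 65.8% and 71.5% to 81.0%, and for Myl3 43.0% to 62.6% and 63.7% to 74.6%.

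The 4 clusters differed in which chains they held. In cluster 17, Myl1 stood at 58.2 to 66.1 CPM of the cluster's own UMIs (without TMM scaling, as for every cluster and class level that follows) in Insm1 mutants and at 44.6 to 58.9 in Tead1/2 mutants, while Mylpf stood at 5.13 to 5.74 and at 5.98 to 7.16. For comparison with cluster 17, GABAergic interneurons held Mylpf at 3.01 to 4.75 CPM in Insm1 mutants and 5.98 to 9.98 in Tead1/2 mutants. In cluster 33, Myl1 stood at 312 to 437 and 338 to 374 CPM, with Mylpf at 39.2 to 59.6 and 51.7 to 57.8. Cluster 31 was the highest for all of Myl1 (596 to 669 and 816 to 1007), Mylpf (349 to 481 and 457 to 559) and Myl4 (234 to 292 and 278 to 388). Cluster 1 lay below cluster 31 for Mylpf and Myl4 and held a median of 6.37 times the UMIs of its libraries' cells, with 6 of 7 astroglia markers over 1.5 times their level across all clusters; their part in its values was not tested.

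Myl2 was highest in cluster 31 in Tead1/2 mutants, at 5.35 ± 1.39 CPM (SD, n = 3 libraries), and stood at 1.75 ± 0.56 there in Insm1 mutants. In Insm1 mutants its highest mean was in cluster 33, at 2.24 ± 1.28 CPM against 3.92 ± 1.04 in Tead1/2 mutants. That Insm1 mean rests on 12 Myl2 UMIs, beside 46 in cluster 31. The libraries of these clusters overlapped (0.816 to 3.31 and 1.11 to 2.11 CPM), so their order is not settled. Myl6b stood at 8.43 ± 1.45 and 8.50 ± 2.28 CPM in cluster 31 of Insm1 and Tead1/2 mutants, and at 1.33 ± 0.22 and 1.84 ± 0.31 in cluster 17. Myl3 stood at 5.93 ± 2.00 and 5.96 ± 0.58 in cluster 31 and at 0.485 ± 0.038 and 0.238 ± 0.214 in cluster 17, there on 7 and 5 UMIs.

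**Figure D4:**
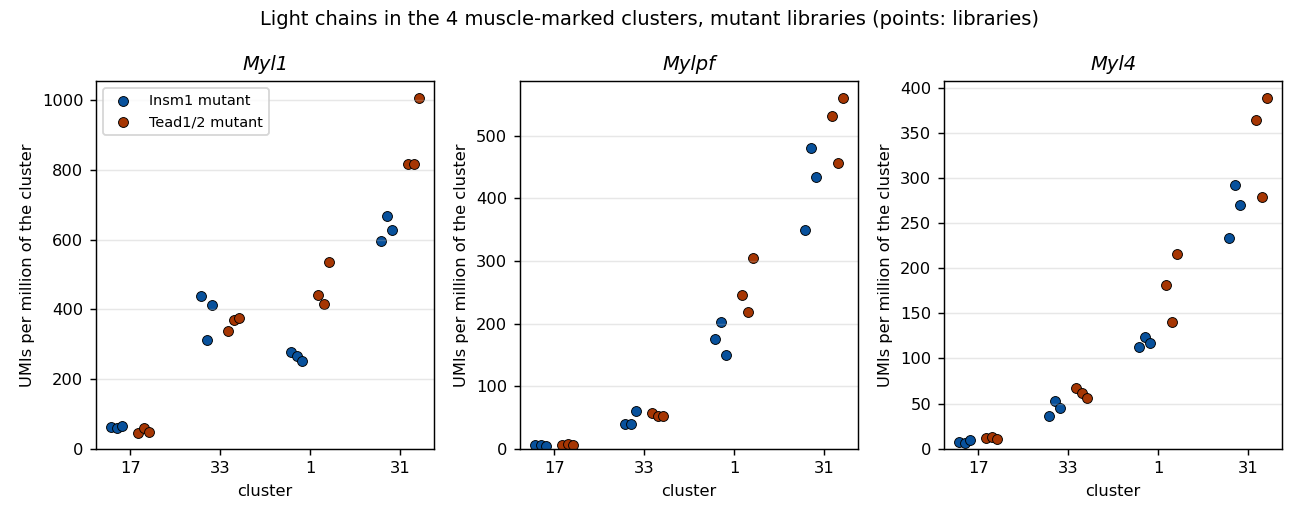
Levels of Myl1, Mylpf and Myl4 as CPM of the cluster's own UMIs (vertical axes) in the 4 muscle-marked clusters (horizontal axis) of the 6 mutant libraries, as points. Cluster 31 is the highest for all 3 genes, and cluster 17 holds Myl1 at 44.6 to 66.1 and Mylpf at 5.13 to 7.16.

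Over the 4 clusters together, Myl1 stood at 355 ± 20 CPM in Insm1 mutants and at 628 ± 52 in Tead1/2 mutants (SD, n = 3 libraries each), a ratio of 1.77. Mylpf stood at 214 ± 32 and 346 ± 32, Myl4 at 141 ± 13 and 236 ± 37, and Myl2 at 1.31 ± 0.40 and 4.23 ± 0.81. The 3 libraries of one line did not overlap those of the other for these 4 genes, which gives an exact two-sided permutation p of 0.1, the smallest that 3 against 3 allows. The lines overlapped for Myl3, at 2.98 ± 1.05 and 3.95 ± 0.15 CPM (exact permutation p 0.2), and for Myl6b, at 4.55 ± 0.24 and 6.23 ± 1.60 (exact permutation p 0.3). The mix of the 4 clusters differs between the lines, and the ratio for Myl1 was 1.39 within cluster 31, 1.75 within cluster 1, 0.930 within cluster 33 and 0.807 within cluster 17. Within cluster 31 the ratios were 1.22 for Mylpf and 1.30 for Myl4, and the lines overlapped for both (exact permutation p 0.2 each).

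Shares of cells with a transcript were read after each cell was thinned to 2000 UMIs, which left out 1353 cells. Myl1 was seen in 0.284% and 0.431% of cells of the Insm1 controls, and in 6.54%, 6.79% and 6.94% of those of the mutants. In the Tead1/2 line it was seen in 0.305% and 0.489% of control cells and in 12.6%, 17.3% and 12.7% of mutant cells. Without thinning the means were 2.68% and 15.7% in the Insm1 line and 2.31% and 23.8% in the Tead1/2 line. With 2 controls and 3 mutants the exact two-sided permutation p cannot go below 0.2, which is the value for both lines.

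Mylpf was seen in 0.189% to 0.335% of control cells over both lines, 3.06% to 4.02% of Insm1 mutant cells and 7.23% to 9.74% of Tead1/2 mutant cells. Myl4 was seen in 0.379% to 0.600%, 2.45% to 3.59% and 6.55% to 8.06%. Myl2, Myl3 and Myl6b were each seen in at most 0.392% of the cells of any library at this depth. Among thinned cells of Tead1/2 mutants with a Mylpf UMI, 76.2% also had a Myl1 UMI and 45.9% a Myl4 UMI, and in Insm1 mutants the shares were 62.6% and 42.5%.

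The granule lineage held little of the fast chains outside the 4 clusters. Over its libraries Myl1 stood at 1.24 and 1.79 CPM in the Insm1 line's controls and at 3.09, 3.28 and 2.90 in its mutants. The Tead1/2 line held 1.58 and 1.82 CPM in controls against 3.74, 4.74 and 3.53 in mutants. The thinned share of granule-lineage cells with Myl1 was 0.458% to 0.699% in Insm1 mutants and 0.739% to 1.27% in Tead1/2 mutants. In their controls it was lower, at 0.214% to 0.398% and 0.321% to 0.469%. This class pools all granule clusters, and levels in the single clusters were not read. In the oligodendrocyte lineage, a class of glia, the mutant shares were 1.65% to 2.38% and 1.48% to 3.12%. The pooled granule-lineage share of Myl1 is below this background and is not read as expression. Thinned granule-lineage cells held Mylpf in 47 of 7894 cells (0.595%) in Insm1 mutants and 38 of 7183 (0.529%) in Tead1/2 mutants. The oligodendrocyte counts were low, at 0 of 728 cells in Insm1 mutants (which allows up to 0.412% of cells with a UMI) and 3 of 1293 cells (0.232%) in Tead1/2 mutants. By this measure the granule-lineage share of Mylpf was the higher one. Over all UMIs, Mylpf stood at 1.99 to 2.28 CPM in the granule lineage of Insm1 mutants and at 2.59 to 3.74 CPM in their oligodendrocyte lineage. In Tead1/2 mutants the ranges were 1.72 to 3.15 and 1.85 to 5.67 CPM. The thinned shares and these levels differ in direction, so Mylpf in the granule lineage is read neither as expression nor as its absence. Median depths per library were 5579 to 7633 UMIs for the granule lineage of mutants and 9985 to 14097 for its oligodendrocyte lineage.

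Other named classes of the mutants held more Myl1 than the granule lineage. Microglia stood at 54.1 to 111 CPM in Insm1 mutants and 173 to 228 in Tead1/2 mutants, against 0.848 to 2.11 over the 4 controls. Meningeal fibroblasts stood at 74.9 to 107 and 128 to 244 CPM, and endothelial cells at 70.8 to 88.6 and 134 to 214. Astroglia stood lower, at 13.4 to 13.8 and 5.41 to 15.6, as did GABAergic interneurons, at 23.1 to 28.1 and 29.2 to 52.0.

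In microglia, meningeal fibroblasts and endothelial cells most of these UMIs lay in barcodes with at least 10 Myl1 UMIs. A fixed count picks deeper barcodes in any class, so the depth gaps below follow in part from the cut. In cluster 31 of Insm1 mutants the median depths above and below it were 30782 and 8983 UMIs. In microglia of Insm1 mutants the 9.06% of cells with at least 10 Myl1 UMIs held 89.2% of the Myl1 UMIs, with a median depth of 65542 UMIs against 13378 in the rest. In microglia of Tead1/2 mutants 11.1% of cells held 92.8%, at a median depth of 57062 against 6611. The remaining microglia stood at 12.3 and 24.9 CPM of Myl1. In meningeal fibroblasts 12.2% and 16.1% of cells held 88.7% and 95.0% of the Myl1 UMIs, and in endothelial cells 10.8% and 15.3% held 91.8% and 93.2%. The share was lower in astroglia, where 0.592% and 0.475% of cells held 26.7% and 28.5% of the Myl1 UMIs, and in GABAergic interneurons, where 1.19% and 1.91% of cells held 46.4% and 51.1%. No granule-lineage cell of any library reached 10 Myl1 UMIs, at median depths of 5978 UMIs in Insm1 mutants and 6412 in Tead1/2 mutants. The same count is harder to reach in such shallow cells. Barcodes that hold more than 1 cell were not removed here. Without the 6% of barcodes with the highest doublet scores, Myl1 summed over libraries stood at 90.3 in place of 85.5 CPM in microglia of Insm1 mutants and at 207 in place of 213 in those of Tead1/2 mutants. In endothelial cells it stood at 84.1 in place of 83.0 and at 142 in place of 190 CPM, and in meningeal fibroblasts at 95.4 in place of 90.04 and at 198.7 in place of 199.6 CPM.

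**Figure D5:**
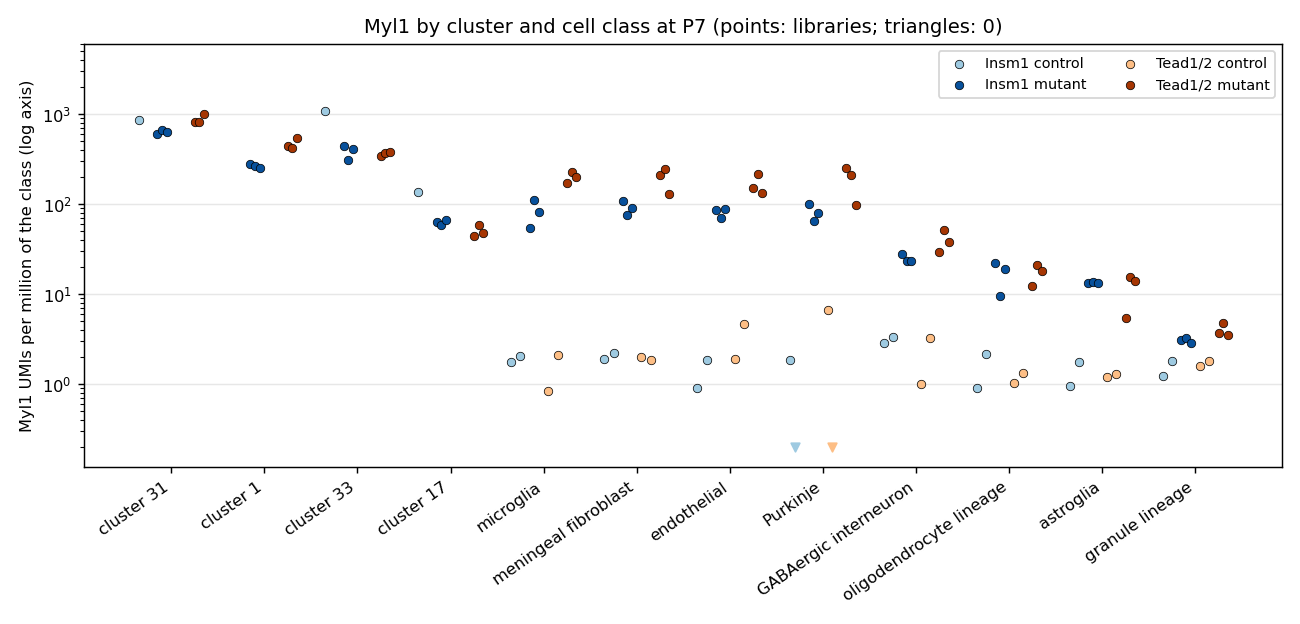
Myl1 as CPM of a cluster's or cell class's own UMIs (vertical log axis) by library, for the 4 muscle-marked clusters and 8 named classes (horizontal axis); triangles mark libraries at 0. Control values in the clusters rest on 7 cells in all, and among the named classes shown the mutants are lowest in the granule lineage (2.90 to 4.74) and stand at 54.1 to 228 in microglia.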

How the data were processed

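For P2, expected counts per gene from RSEM were deposited by the authors (RSEM 1.3.3 and STAR 2.7.9a are named in the submitters' processing notes). For P7, they deposited raw UMI counts per barcode, with no cell filter. The bulk tables' names are swapped against their columns, so columns were matched by name, with 0 unmatched; 92 ERCC entries were left out. ATAC-seq and CUT&RUN samples were not analysed here.

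Expected counts were rounded and fitted per line by the quasi-likelihood test of edgeR 4.0.16 under R 4.3.3, with TMM scaling, filterByExpr and Benjamini-Hochberg adjustment, calling at an FDR under 0.05. The difference between deletions was a contrast over all libraries, and DESeq2 1.42.0 was a further tool. The fits were tested on simulated data. Every p measures the spread between individual pups.

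P7 barcodes with at least 1000 UMIs, 500 genes and under 15% mitochondrial UMIs were kept, and 91.7% to 94.3% of UMIs lay in them. Scrublet's own threshold marked 0 or 1 cells in 3 libraries and 36% to 55% in the others, so doublets were kept. Cells were clustered with scanpy 1.11.5 (30 components, 15 neighbours, resolution 1). Intervals and sums of UMIs cover counting error only.

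The members, gene lists and tests were chosen with earlier results of these data known. Genes named are all 6 members, up to 4 called genes per partner list with the largest changes, the 5 genes most similar to Mylpf, Myl1 and Myl4, and the targeted genes; others named were chosen after their values were seen. Same-numbered P2 libraries had correlations of their deviations from group means of -0.14 to 0.26 and P7 libraries -0.12 to 0.04. The main fits did not pair libraries by number. Each line has 2 controls at P7, whose deviations mirror each other, so the P7 values cannot decide whether the numbers pair libraries. At P7, number 1 marks the dissection of all lobules and numbers 2 and 3 that without lobules IX and X. Controls have numbers 1 and 2 and mutants 1 to 3, so the mix of dissections differs between them. The main P7 fits did not adjust for the dissection.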

Additional observations from a re-analysis of the deposited data

Results flagged for a closer look

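The tests of the difference between the deletions at P7 called 4 members as larger after the Tead1/2 deletion. The log2 differences (Tead1/2 minus Insm1) were 1.43 for Myl1, 1.66 for Mylpf, 1.15 for Myl4 and 1.08 for Myl6b. Their edgeR FDR values were 0.00823, 0.00807, 0.0117 and 0.0353. Every Tead1/2 mutant lay above every Insm1 mutant for these genes. The levels of the controls enter the differences too. Control means of the Insm1 and Tead1/2 lines were 1.83 and 1.66 CPM for Myl1 and 1.31 and 0.938 for Mylpf. They were 2.57 and 2.69 for Myl4 and 1.10 and 0.738 for Myl6b.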

How the results depend on the processing

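All 6 members stayed called for the Tead1/2 deletion at P7 under 18 alternatives, and 5 or 6 for the Insm1 deletion. Leaving out 1 library at a time, the members called ranged from 1 to 3 for Insm1 at P2, 0 to 2 for Tead1/2 at P2 (2 without the library labelled mutant 4) and 2 to 5 for the difference at P7. For Tead1/2 at P2, DESeq2, no filter on low counts and the replicate block each called 2 members in place of 0. In the fit with the replicate block, Myl4 was no longer called for Insm1 at P2 (2.07, edgeR FDR 0.0559). That block changed no call for the difference at P2, where the numbers do not pair the samples. At P7 the block was the dissection (with or without lobules IX and X) and not the library number. It changed no call at P7. The small change of Myl6b for Insm1 at P2 ranged from -0.11 to 0.045 with 1 library left out, and turned positive without Insm1 control 1 (0.045) or mutant 1 (0.0066). Its share of cells with a UMI in Insm1 mutants minus controls turned from -0.04 to 1.23 percentage points when cells were not thinned. The difference for Myl6b at P7 lost its call in 8 of 18 alternatives, and that for Myl4 without Scrublet-marked barcodes (2.20, FDR 0.0563). That for Myl2 stayed uncalled in 14 of 18 alternatives and was called in the others (lowest FDR of edgeR or DESeq2 0.00823). Other alternatives were chosen after seeing the data: all deposited barcodes, and without the 6% highest doublet scores, where Myl6b reached 1.02 (FDR 0.0575). The cause of these changes was not tested. Low counts limit Myl2 and Myl3 at P2.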
